A study of Rattus norvegicus with 24 samples.

Results

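The GABA interneuron marker genes were 10 genes taken by symbol: Lhx6, Sst, Npy, Pvalb, Calb2, Vip, Reln, Gad1, Gad2 and Nos1. They were 10 of the 13337 named genes on the array, and each was read by 1 probe, out of 22523 probes in all. The probes of 9, all but Nos1, passed the detection filter and stood among the 12956 probes tested. The animals were male Sprague-Dawley rats, each injected with saline or 10 mg/kg methamphetamine (METH) and, after a month, with saline or 2.5 mg/kg METH. Tissue was taken 2 h after that last injection. Total RNA was measured on Illumina bead arrays in 4 groups named by both injections: saline then saline (SS, 4 arrays), saline then METH (SM, 6 arrays), METH then saline (MS, 7 arrays) and METH then METH (MM, 7 arrays). The tissue was labelled nucleus accumbens (NAc), with striatal brain tissue as its source. The labels did not tie arrays to separate rats, and p-values therefore measure the spread between these samples. Every comparison with SS used the same 4 SS arrays.

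GABA interneurons are local inhibitory cells that form a small share of striatal neurons, most of which are medium spiny neurons that also make GABA. Their classes are told apart by what they make: parvalbumin in fast-spiking cells, calretinin in another class, and somatostatin, neuropeptide Y and nitric oxide synthase together in a further striatal class. Lhx6 is a transcription factor of interneurons born in the medial ganglionic eminence, reelin is a secreted glycoprotein, and Gad1 and Gad2 encode the enzymes that make GABA in all GABA neurons.

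The promoters of the 3 neuropeptide genes are shown because these genes differed in their comparison with SS: Sst was called and Npy and Vip were not. Each window runs from 250 bases before to 20 bases after the start annotated by RefSeq on build GRCr8, plus strand, 5′ to 3′. They lie at chr11:90461296-90461565 (Sst), chr4:80211861-80212130 (Npy) and chr1:44470230-44470499 (Vip). Capitals mark the cAMP response element TGACGTCA in Sst and, in Vip, TGACG, the reverse complement of the shorter form CGTCA, which also lies inside TGACGTCA.
Sst: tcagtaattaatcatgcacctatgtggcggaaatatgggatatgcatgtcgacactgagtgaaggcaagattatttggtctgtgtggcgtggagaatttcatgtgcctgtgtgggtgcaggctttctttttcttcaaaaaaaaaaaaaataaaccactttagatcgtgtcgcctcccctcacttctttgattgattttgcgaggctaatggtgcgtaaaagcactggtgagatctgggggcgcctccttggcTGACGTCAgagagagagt
Npy: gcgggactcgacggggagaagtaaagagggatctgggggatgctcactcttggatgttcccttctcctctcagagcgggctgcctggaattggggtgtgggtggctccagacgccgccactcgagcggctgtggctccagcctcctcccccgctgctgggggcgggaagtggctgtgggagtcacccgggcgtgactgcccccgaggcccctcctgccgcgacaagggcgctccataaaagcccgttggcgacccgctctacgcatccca
Vip: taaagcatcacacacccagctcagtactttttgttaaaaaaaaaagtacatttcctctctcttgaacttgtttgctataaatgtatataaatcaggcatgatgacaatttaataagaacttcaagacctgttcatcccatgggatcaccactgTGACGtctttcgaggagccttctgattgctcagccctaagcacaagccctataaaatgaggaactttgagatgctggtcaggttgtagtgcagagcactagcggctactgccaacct

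TGACGTCA, read on both strands, was in 588 of 33469 RefSeq windows of this length (1.76%), and CGTCA in 6567 (19.6%). In Sst the long form stood at bases 3 to 10 of the annotated transcript. The short form stood 97 to 93 bases before the start of Vip, and the Npy window held neither. Promoter entries were matched for 9 of the 10 genes. Of the other 6, only Nos1 held TGACGTCA, 9 to 2 bases before its start. Nos1 held 4 copies of CGTCA on the 2 strands, those inside TGACGTCA included, the first 119 to 115 bases before its start. Pvalb held 1 copy of CGTCA. These matches are letters in a window and were not measured as binding.

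Against SS, the same 4 interneuron genes rose and 1 fell whichever METH schedule was compared: Calb2, Lhx6, Sst and Gad1 were higher and Reln was lower in SM, in MS and in MM. Thus 5 of the 9 tested members passed an adjusted p of 0.05 in limma in each comparison. The members were chosen with earlier results of these data known, so these counts are a description. Of all probes tested, 13.7% passed in SM against SS, 18.0% in MS against SS and 22.5% in MM against SS. Probes higher than in SS were 6.07%, 8.8% and 11.0% of all probes, and probes lower were 7.59%, 9.23% and 11.5%. The median log2 difference of the 9 members was 0.26 in SM, 0.17 in MS and 0.28 in MM, with the medians of all probes tested within 0.01 of 0. In this bulk tissue, more or fewer cells of a type cannot be told apart from more or less RNA per cell.

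**Figure D1:**
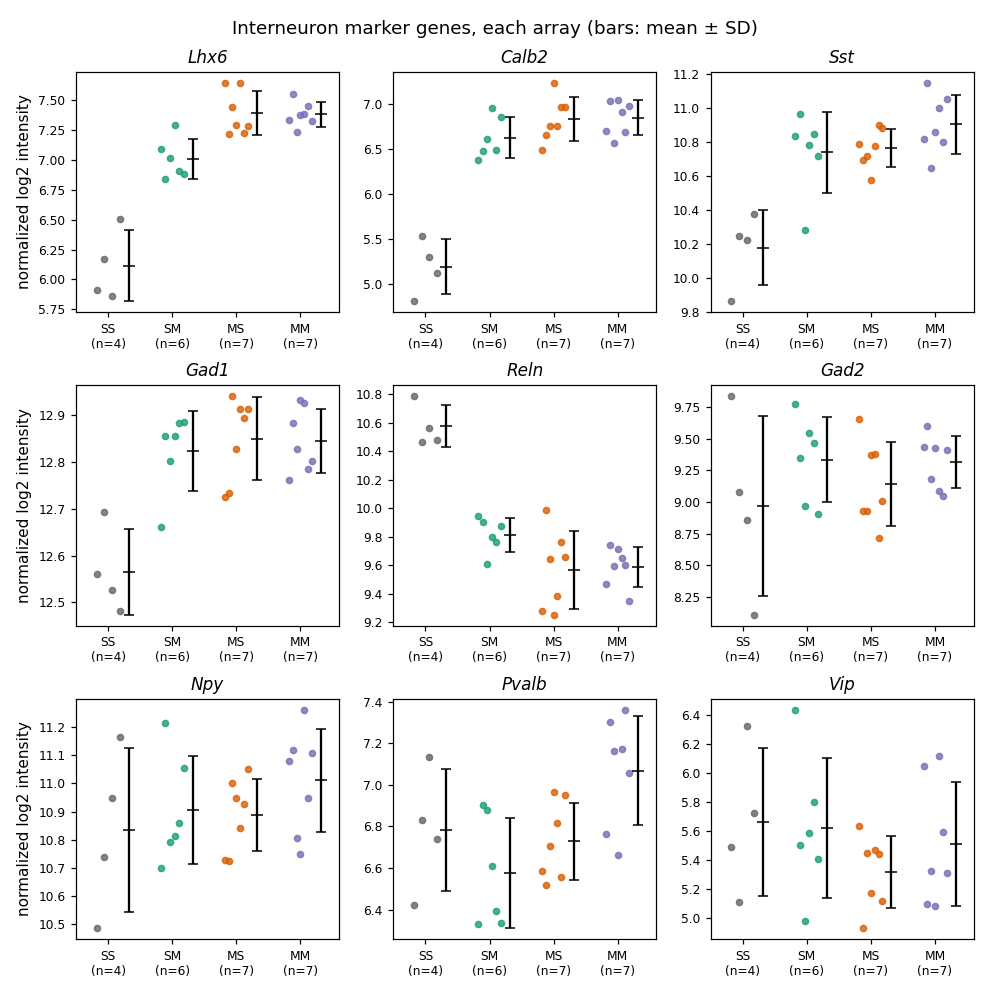
Normalized log2 intensity (y axis) of 9 interneuron genes on each array, by treatment group (x axis); points are arrays and bars are the mean ± SD. The SS arrays stood below all arrays of MS and MM for Lhx6, Calb2, Sst and Gad1 and above them for Reln, while the groups overlapped for Gad2, Npy, Pvalb and Vip.

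Calb2 encodes calretinin, a calcium-binding protein of one interneuron class. Its deposited intensities in SS were 11.1, 25.0, 20.1 and 12.4, and its probe (ILMN_1352485) was detected on 3 of these 4 arrays. It ranged from 63.2 to 108.1 in SM (median 99.15), from 85.6 to 118.4 in MS (median 95.3) and from 72.5 to 135.5 in MM (median 91.6). No array of SM, MS or MM was as low as any SS array. After normalization Calb2 was higher than in SS by 1.44 ± 0.14 (SE) on the log2 scale in SM, a 2.72-fold difference (limma adjusted p = 1.06e-07). The differences were 1.65 in MS (3.13-fold, adjusted p = 3.06e-09) and 1.66 in MM (3.16-fold, adjusted p = 2.42e-09). With the offset of 16 added to every intensity before the log, these folds were smaller than the ratios of the mean intensities, which were 5.24, 5.68 and 5.80. The values of the authors' series matrix have no such offset and no scaling between arrays. There the log2 differences of Calb2 were 2.43, 2.58 and 2.59. With an offset of 50 they were 0.91, 1.07 and 1.08, and every one of these was called.

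Lhx6 encodes a LIM homeobox factor needed by parvalbumin and somatostatin interneurons in the mouse. The SS arrays gave intensities of 54.9, 45.4, 36.4 and 49.5. In SM they ran from 87.3 to 193.4 (median 119.2), in MS from 121.4 to 206.9 (median 136.2) and in MM from 117.8 to 182.6 (median 147.0). Again all 20 arrays with any METH injection lay above the 4 SS arrays. Lhx6 was higher than in SS by 0.89 on the log2 scale in SM (1.86-fold, adjusted p = 4.81e-06), 1.28 in MS (2.43-fold, adjusted p = 5.55e-09) and 1.27 in MM (2.41-fold, adjusted p = 5.71e-09). For Lhx6, too, the size depended on the processing: in SM it was 0.65 with an offset of 50 and 1.37 in the authors' series matrix, with both called.

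Sst encodes the inhibitory peptide somatostatin. Its SS intensities were 1244.0, 1028.2, 1079.7 and 923.3. The range was 1089.7 to 2725.0 in SM (median 1709.15), 1319.1 to 1951.7 in MS (median 1688.4) and 1409.7 to 2422.3 in MM (median 1804.3). On normalized values all arrays of MS and MM and 5 of the 6 SM arrays were above every SS array. The exception, SM replicate 3, lay at 10.28 on the log2 scale, inside the SS range of 9.86 to 10.37. Sst was higher by 0.56 in SM (1.48-fold, adjusted p = 0.00136), 0.59 in MS (1.5-fold, adjusted p = 0.00042) and 0.73 in MM (1.66-fold, adjusted p = 2.65e-05).

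Gad1 encodes a glutamate decarboxylase and had the smallest of the called differences. Its SS intensities of 8164.9, 5832.0, 5652.8 and 4276.8 overlapped those of SM (6434.9 to 9357.9), MS (6478.0 to 8012.7) and MM (5877.4 to 8520.9) before normalization. After normalization the SS arrays ran from 12.48 to 12.69 on the log2 scale, SM from 12.66 to 12.89, MS from 12.72 to 12.94 and MM from 12.76 to 12.93. Only the lowest SM array fell within the SS range. Gad1 was higher by 0.26 in SM (adjusted p = 0.011), 0.28 in MS (adjusted p = 0.00279) and 0.28 in MM (adjusted p = 0.00274), all about 1.20-fold to 1.22-fold. The call for Gad1 depended on the scaling: with arrays only scaled to 1 median the log2 differences of 0.25, 0.22 and 0.21 had an adjusted p of 0.114, 0.155 and 0.138, and in the authors' series matrix those of 0.39, 0.29 and 0.29 had 0.162, 0.331 and 0.289. The difference of Gad1 was thus of similar or larger size in the series matrix and was no longer called.

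Reln encodes reelin and was the member that fell. Its intensities in SS were 2389.4, 1212.6, 1397.6 and 1004.4. They ran from 670.2 to 1500.7 in SM (median 880.5), from 517.6 to 994.8 in MS (median 715.7) and from 500.6 to 956.3 in MM (median 727.7). On normalized values no array of the 3 METH groups reached the lowest SS array. Reln fell by 0.76 on the log2 scale in SM (1.70-fold, adjusted p = 4.98e-05), by 1.01 in MS (2.01-fold, adjusted p = 3.55e-07) and by 0.99 in MM (1.98-fold, adjusted p = 3.85e-07).

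Across these genes, the normalized values of 3 of the 9 members did not overlap between SM and SS (Calb2, Lhx6 and Reln), against 8.1% of all probes tested. In MS and in MM, 5 of the 9 did not overlap with SS, against 10.6% and 14.8% of all probes.

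**Figure D2:**
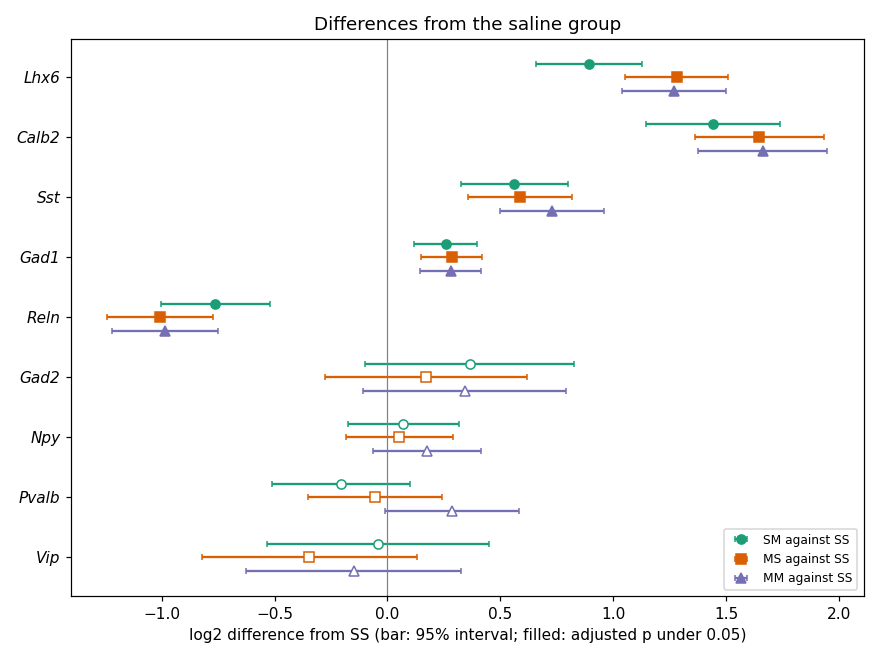
Log2 difference from SS (x axis) of 9 interneuron genes (y axis) in SM, MS and MM; bars are 95% intervals from limma and filled symbols mark an adjusted p under 0.05. Calb2, Lhx6, Sst and Gad1 lie to the right of 0 and Reln to the left in all 3 comparisons, and the intervals of Gad2, Npy, Pvalb and Vip include 0.

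The other 4 tested members were not called against SS, with adjusted p-values between 0.168 and 0.942. Npy encodes neuropeptide Y, which is made by the somatostatin cells of the striatum. Its SS intensities were 1913.7, 1458.1, 1828.3 and 1633.4, and the medians were 2121.0 in SM, 1849.4 in MS and 1958.4 in MM, with all groups overlapping. The 95% intervals of its log2 difference from SS were -0.18 to 0.32 in SM, -0.19 to 0.29 in MS and -0.06 to 0.41 in MM.

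Pvalb encodes parvalbumin, the calcium-binding protein of fast-spiking interneurons. Its intensities were 87.6, 81.3, 111.1 and 61.4 in SS, 66.9 to 103.7 in SM, 71.6 to 108.6 in MS and 95 to 149.2 in MM. The log2 difference from SS was -0.21 in SM (95% interval -0.51 to 0.10), -0.05 in MS (-0.35 to 0.24) and 0.28 in MM (-0.01 to 0.58). On normalized values 4 of the 7 MM arrays lay above every SS array.

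Vip encodes vasoactive intestinal peptide and was among the dimmest members, with SS intensities of 35.7, 15.1, 55.9 and 24.1 and a range of 11.4 to 114.4 in SM. Its intervals were wide: -0.53 to 0.45 in SM, -0.82 to 0.13 in MS and -0.63 to 0.33 in MM. Nos1, the neuronal nitric oxide synthase gene, was not well above background on any of the 24 arrays, with intensities between 0.4 and 8.9, and was not tested.

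Gad2 encodes the second glutamate decarboxylase and varied most among the SS arrays, whose intensities were 1221.1, 438.7, 405.3 and 177.4. On normalized values the SS arrays spanned all the others: SS ran from 8.11 to 9.83 on the log2 scale, SM from 8.90 to 9.77, MS from 8.72 to 9.65 and MM from 9.05 to 9.60. Its log2 difference from SS was 0.36 in SM (adjusted p = 0.329), 0.17 in MS (adjusted p = 0.662) and 0.34 in MM (adjusted p = 0.285). Gad2 fell by 0.06 on the log2 scale for each place further along the slide (limma adjusted p = 0.0513), while 5.46% of all probes passed for place. Without SS replicate 1, which stood first on its slide, Gad2 was called higher in SM (0.65, adjusted p = 0.0323) and in MM (0.63, adjusted p = 0.0245). On slide 2 alone the difference was 0.82 in SM (adjusted p = 0.0258) and 0.76 in MM (adjusted p = 0.0243), and on slide 1 alone it was -0.09 and -0.05. The part of the place on the slide in these values was not tested beyond a fit with place as a linear term, in which the adjusted p was 0.152 in SM and 0.0779 in MM.

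**Figure D3:**
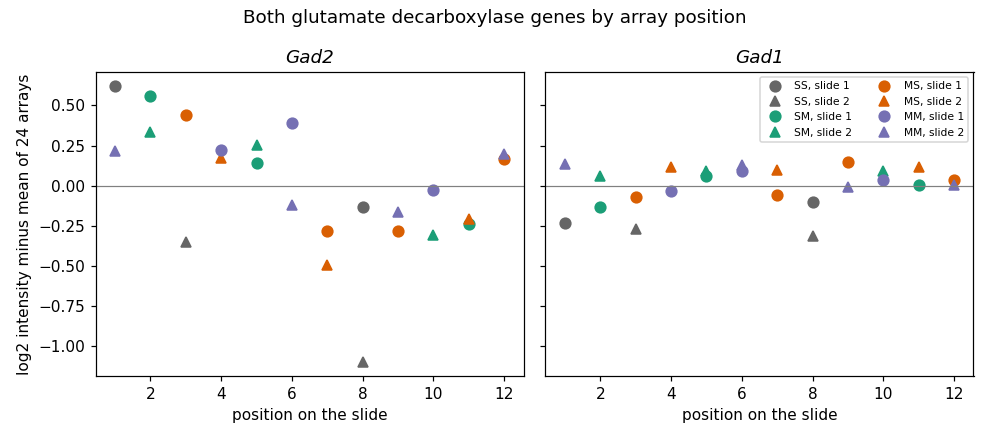
Log2 intensity of Gad2 and Gad1 minus the mean of the 24 arrays (y axis) against the place of the array on its slide (x axis); colours are groups, circles slide 1 and triangles slide 2. The 4 SS arrays of Gad2 (grey) hold both its highest and its lowest value, while Gad1 shows no such spread.

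The second question was whether the METH groups differed among themselves. No member was called in MM against SM, in MM against MS or in SM against MS by limma, where 1.28%, 1.13% and 0.641% of all probes passed. At an unadjusted p under 0.05 the counts were 3, 1 and 2 of 9, where 16.0%, 13.1% and 9.13% of all probes passed. Pvalb came nearest, higher in MM than in SM by 0.49 on the log2 scale (95% interval 0.23 to 0.76, adjusted p = 0.052), with 5 of 7 MM arrays above every SM array. Lhx6 was 0.37 higher in MM than in SM (0.17 to 0.58, adjusted p = 0.0549) and 0.39 lower in SM than in MS (-0.59 to -0.18, adjusted p = 0.0754). Pvalb passed in 13 of 39 other settings and Lhx6 in 12 of 39 in MM against SM. MM and MS lay close for Calb2, with an interval of -0.23 to 0.26, for Lhx6 (-0.21 to 0.18) and for Reln (-0.18 to 0.22).

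Ordered by group mean, Lhx6 ran from SS through SM and MM to MS, and Calb2 and Sst from SS through SM and MS to MM. Reln ran from MS through MM and SM to SS. In each of these orders the step between SS and its neighbour SM was called, and no step between METH groups was.

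The third comparison was the difference between MM against MS and SM against SS, the second METH injection after METH and after saline. By this test 3 of the 9 members differed, 2 of them lower and 1 higher, while 7.67% of all probes did (3.51% lower and 4.16% higher). The difference was -1.43 for Calb2 (adjusted p = 1.62e-05), -0.91 for Lhx6 (adjusted p = 0.000316) and 0.78 for Reln (adjusted p = 0.00155). The sizes moved with the processing, from -0.90 with an offset of 50 to -2.42 in the authors' series matrix for Calb2 and from -0.66 to -1.39 for Lhx6, all called. For Reln the call was lost with arrays scaled to 1 median (0.72, adjusted p = 0.055) and in the authors' series matrix (0.60, adjusted p = 0.389). For each of the 3 genes SM stood apart from SS and MM did not stand apart from MS beyond their spread. For Gad1, Pvalb and Sst the differences were -0.26, 0.55 and -0.42, with adjusted p of 0.0674, 0.0834 and 0.0871.

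Pairs of members were also set against each other on each array, as the log2 difference between the genes minus its mean in SS. The pairs were chosen after the values were seen, and no test is given. Sst minus Npy lay between -0.13 and 0.17 in SS. It was 0.49 ± 0.24 (SD, n = 6) in SM, 0.53 ± 0.16 (n = 7) in MS and 0.55 ± 0.14 (n = 7) in MM. Every MS and MM array and 5 of 6 SM arrays lay above the SS arrays, so this difference had moved up relative to SS there.

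Lhx6 minus Sst was 0.33 ± 0.31 in SM, 0.69 ± 0.22 in MS and 0.54 ± 0.13 in MM, against an SS range of -0.30 to 0.20. Lhx6 minus Pvalb was 1.10 ± 0.32, 1.33 ± 0.26 and 0.98 ± 0.24. For the calcium-binding proteins, Calb2 minus Pvalb was 1.65 ± 0.36 in SM, 1.70 ± 0.18 in MS and 1.38 ± 0.35 in MM. All arrays of the METH groups lay above every SS array in this last pair, and also in Lhx6 minus Pvalb. Gad1 minus Gad2 moved by -0.11 ± 0.39, 0.11 ± 0.38 and -0.06 ± 0.21, within the SS range of -0.87 to 0.78.

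**Figure D4:**
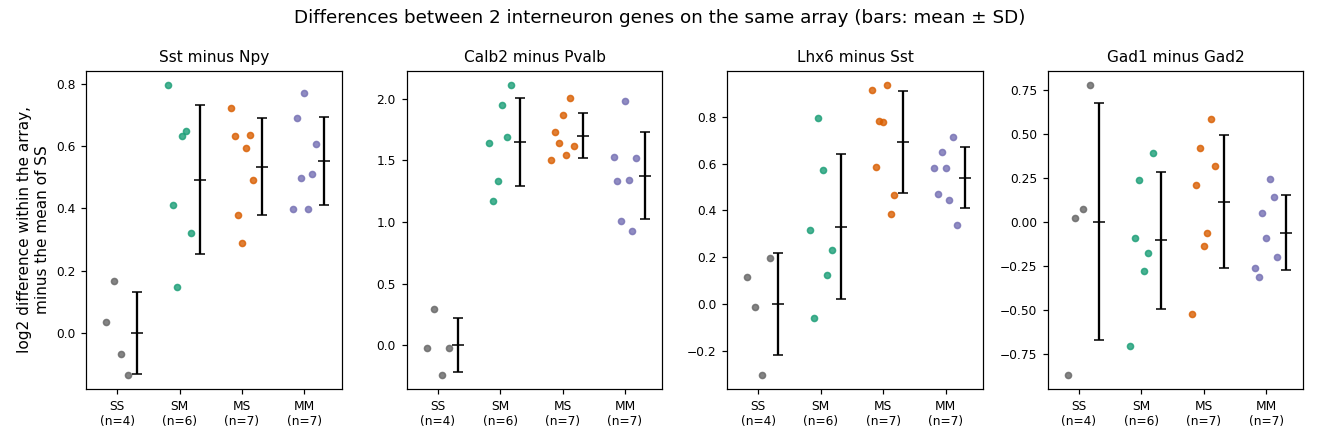
Log2 difference between 2 interneuron genes on the same array, minus its mean in SS (y axis), by group (x axis); points are arrays and bars the mean ± SD. Sst minus Npy, Calb2 minus Pvalb and Lhx6 minus Sst lie above the SS arrays in MS and MM, and Gad1 minus Gad2 overlaps in all groups.

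Related genes were counted in lists, which were chosen with earlier results of these data known. Beside each count below stands the share of all probes called in either direction against SS. It was 13.7% in SM, 18.0% in MS and 22.5% in MM. Of 7 tested genes of GABA synthesis, transport and breakdown, Gad1 and Gad2 included, 1 rose and 1 fell in SM, 3 rose and 1 fell in MS, and 4 rose and 1 fell in MM against SS. Their median log2 difference was 0.26, 0.28 and 0.32, beside medians of all probes within 0.01 of 0. Slc38a1, a glutamine carrier that supplies GABA synthesis, fell by 0.65 in MS (adjusted p = 0.000564). Slc6a13, a GABA transporter, rose by 0.36 in MS (adjusted p = 0.0127) from intensities of 11.9 to 12.9 in SS. The gene of the vesicular GABA transporter, Slc32a1, was not among the probes tested.

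Among 11 tested interneuron transcription factors, 1 rose and 1 fell in each comparison with SS. This count was near the share of all probes called (13.7%, 18.0% and 22.5%). The list's median lay between -0.06 and -0.04. Lhx6 was the one that rose. The one that fell was Nr2f1, a nuclear receptor of interneurons of caudal origin in the mouse, by 0.83 in SM (adjusted p = 7.59e-07), 0.59 in MS and 0.57 in MM. Its deposited intensities were 95.7 to 199.0 in SS and 47.9 to 124.5 in SM.

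Of 17 tested further markers of interneuron classes, 5 rose and 1 fell in SM, 7 and 3 in MS, and 5 and 2 in MM. Of all probes, 13.7%, 18.0% and 22.5% were called. Cnr1, a cannabinoid receptor gene, fell by 1.12 in SM, 1.12 in MS and 1.11 in MM (limma adjusted p at most 3.45e-07). Its intensities were 60.1 to 157.8 in SS and between 23.1 and 52.2 in the other groups. Which cells carried this fall was not tested. Vwc2, which encodes a secreted protein, rose by 0.66, 0.82 and 0.96.

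Of 13 tested genes used by fast-spiking cells, 1 rose and 2 fell in SM, 4 rose and 1 fell in MS, and 4 and 2 in MM. The shares of all probes called were 13.7%, 18.0% and 22.5%. Kcnc2, a fast potassium channel gene, rose by 0.79 in SM, 0.92 in MS and 1.08 in MM (adjusted p = 9.73e-08 in MM). Its SS arrays read 363.9 to 674.6, and the 20 others 706.1 to 1686.7. Scn4b, a sodium channel subunit that medium spiny neurons also express, fell by 1.16, 1.34 and 1.43.

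Among 7 tested receptors of the interneuron peptides, 1 rose in SM, and 3 rose and 1 fell in MS and in MM. All probes were called at 13.7%, 18.0% and 22.5%. Sstr1, a somatostatin receptor, was 1.01, 1.34 and 1.61 higher than in SS, with intensities of 45 to 105.2 in SS and 112.7 to 305.2 in the other groups. Sstr1 was also 0.60 higher in MM than in SM (adjusted p = 0.0409). Sstr2, another somatostatin receptor, fell by 0.85 in MS (adjusted p = 5.59e-06) and 0.67 in MM (adjusted p = 0.000116). The difference of Sstr2 in SM was -0.29 (adjusted p = 0.118).

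In the reelin pathway, 1 of 7 tested genes fell and none rose in each comparison with SS. This count was near or below the share of all probes called (13.7%, 18.0% and 22.5%). The gene was Fyn, a kinase that phosphorylates the reelin adaptor Dab1, which fell by 0.40 in SM, 0.31 in MS and 0.36 in MM. The reelin receptors Vldlr and Lrp8 were not called, with -0.19 and -0.01 in SM, -0.21 and -0.04 in MS, and -0.23 and 0.03 in MM. Of 11 tested genes of nitric oxide and cGMP signalling, 1 rose and 2 fell in SM, 1 and 3 in MS, and 2 and 3 in MM. Arg2, an arginase that uses the substrate of nitric oxide synthase, rose by 0.70, 0.63 and 0.73, and Pde2a, a cyclic nucleotide phosphodiesterase, fell by 0.63, 0.76 and 0.90.

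For each called member, the 3 genes with the most similar profile over the 24 arrays are given by Pearson's r as a description. These arrays share the 4 SS arrays that stood apart, so r without them (20 arrays) is given too. Calb2 was closest to Pnck (r = 0.96, 0.62 without SS), Nell1 (0.95, 0.56) and Qprt (0.95, 0.57). Lhx6 was closest to Cd83 (0.93, 0.64), Dcaf12l1 (0.93, 0.79) and Spats2l (0.92, 0.59). Sst was closest to Ypel4 (0.93, 0.75), Usp11 (0.90, 0.74) and Fxyd6 (0.89, 0.65). Gad1 was closest to Cyp4f4 (0.87, 0.59), to Calb2 itself (0.86, 0.53) and to Smim14 (0.86, 0.76). Reln was closest to Slc16a6 (0.91, 0.55), Slc22a3 (0.91, 0.58) and Pbk (0.91, 0.62).

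Markers of other cells were counted in the same way. Of all probes tested, 13.7% were called in SM, 18.0% in MS and 22.5% in MM against SS. These lists were chosen with earlier results of these data known, so their counts are a description. Of 20 medium spiny neuron markers, which check the labelled tissue, 17 were tested: 13 fell in SM and 15 in MS and in MM against SS, and none rose. Their mean log2 level ran from 11.13 to 11.28 in SS, 10.56 to 10.81 in SM, 10.47 to 10.69 in MS and 10.38 to 10.62 in MM, so that SS did not overlap any other group. Drd1 and Drd2, the dopamine receptor genes that define the classes of these cells, were among the probes tested and fell by 0.34 and 0.60 in SM, 0.50 and 0.76 in MS, and 0.50 and 0.86 in MM. Of 13 tested markers of hypothalamus and preoptic area, 6 rose in SM, 8 in MS and 7 in MM, and none fell. That list's mean log2 level was 5.45 to 5.94 in SS and 6.02 to 6.57 in the other groups. Its first genes, Hap1 and Nnat, rose by 1.39 and 1.29 in SM, 1.64 and 1.49 in MS, and 1.41 and 1.42 in MM. Hcrt, Sim1, Otp and Nr5a1 were not among the probes tested. Of 7 tested markers of cholinergic neurons and septum, 1, 5 and 3 rose. The count in SM was near the share of all probes called (13.7%). The list's mean level was 5.82 to 6.06 in SS, 6.05 to 6.73 in SM, 6.17 to 6.70 in MS and 6.25 to 6.63 in MM. Chat and Lhx8 were not tested. Slc5a7 rose by 0.90 in MS and 1.09 in MM, and its difference of 0.64 in SM was not called.

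Of 9 tested glutamatergic cortex markers, 2, 4 and 2 fell. Of all probes, 13.7% were called in SM, 18.0% in MS and 22.5% in MM, so the count in MM was near that share. Mean levels were 6.44 to 6.81 in SS, 6.13 to 6.53 in SM, 6.00 to 6.19 in MS and 6.10 to 6.64 in MM. Slc17a7 fell by 0.58 in MS, but its differences in SM (-0.41) and MM (-0.17) were not called. Tbr1 was not tested. Of 9 glial markers, 6, 4 and 5 fell and 1, 1 and 2 rose, with mean levels of 10.00 to 10.10 in SS and 9.41 to 9.97 in the other groups. Gfap was lower throughout, with log2 differences of -1.62 in SM, -1.25 in MS and -1.18 in MM. The choroid plexus list stood at 5.29 to 5.72 in SS, 5.13 to 5.60 in SM, 5.16 to 5.41 in MS and 5.95 to 8.07 in MM. Of its 6 tested genes, 1 rose in SM, 1 rose and 1 fell in MS, and 4 rose in MM. Ttr, its first gene, was 5.01 higher in MM than in SM. Against SS, Ttr differed by -1.75 in SM (not called), -2.19 in MS and 3.25 in MM. The part of these other cells in the differences of the interneuron genes was not tested.

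**Figure D5:**
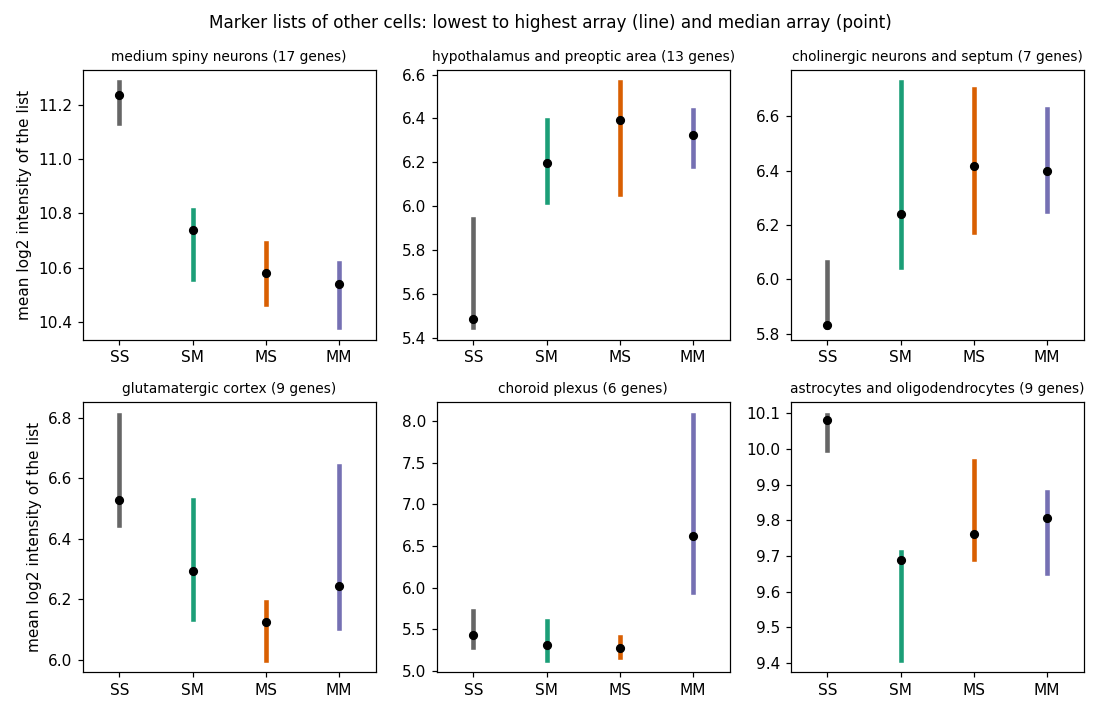
Mean normalized log2 intensity (y axis) of marker lists of other cells by group (x axis); lines span the lowest to the highest array and points are the median array. The medium spiny neuron list was highest in SS and the hypothalamus and preoptic list lowest in SS, and neither overlapped with the other groups.

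Over the arrays as a whole, 49.4% to 53.8% of probes were detected and median intensities ran from 10.0 to 23.0. Any 2 arrays correlated with a Spearman's rho of 0.947 to 0.988 over the probes. Both slides held all 4 groups. A weight under 0.5 in limma was given to 3 arrays, SS replicate 1 (0.34), MS replicate 1 (0.32) and SM replicate 3 (0.25). Without them Calb2, Lhx6, Sst, Gad1 and Reln were still called in all 3 comparisons with SS.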

How the data were processed

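Total RNA of 24 samples was measured on Illumina rat bead arrays, and the submitters' processing notes name BeadStudio. The deposited intensity values were background-subtracted by the authors and not scaled between arrays. The deposited detection values are stored as 1 minus the detection p-value and stand in another row order than the intensities (Spearman's rho between -0.00699 and 0.000247), so the p-value was paired with the intensity by rank within each array. The authors' series matrix holds log2 intensities, floored at 1 and centred on each probe's median, and served as an alternative.

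Intensities were normalized with neqc of limma 3.58.1 in R 4.3.3 (offset 16). A probe was kept where its detection p was below 0.05 on 4 arrays or more. One mean per group was fitted to all 24 arrays with lmFit and eBayes, and p-values were adjusted by Benjamini and Hochberg over the 12956 probes. Log2 differences carry 95% intervals. Groups came from the labels. Symbols came from the platform annotation, updated through RefSeq gene IDs. All 10 genes were matched by ID. The genes named beside the members were the up to 2 genes of each related list with the smallest p in MS or SM against SS, the first genes of each cell marker list, and the 3 most correlated genes. Vldlr, Lrp8, Hcrt, Sim1, Otp, Nr5a1, Lhx8, Tbr1, Chat and Slc32a1 were named outside that rule, after their values were seen. The members and lists were chosen with earlier results of these data known. The number of arrays limits the precision. The fit was tested on simulated data. Alternatives changed the background correction, scaling, filter, slide, array weights and arrays included. The fit with place on the slide and the fit without 3 arrays of low weight were chosen after seeing the data.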

Additional observations from a re-analysis of the deposited data

Results flagged for a closer look

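Sst in SM replicate 3 stood apart from its group, at 10.28 on the log2 scale with the other 5 SM arrays between 10.72 and 10.97. It was the only one of 40 groups of values with such a gap, and chance gives about 1 in 20 (2 of 40). The same array had the lowest weight of all arrays (0.25). Without it Sst was 0.65 higher in SM than in SS.

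The log2 difference between MM against MS and SM against SS was called for Lhx6 (-0.91), Reln (0.78) and Calb2 (-1.43). In MM against MS alone these genes differed by -0.01, 0.02 and 0.01. All 4 groups enter this test, the 4 SS arrays included. Markers of other cells were called in it too, such as Hap1 (-1.62) and Gfap (1.70). Of 17 medium spiny neuron markers, 10 were called higher in it and 0 lower, while 4.16% of all probes were called higher and 3.51% lower. The part of the SS samples in these differences was not tested.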

How the results depend on the processing

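No paired analysis was possible because the labels give the arrays no replicate number shared between groups. No member's call turned its direction under any setting. Calb2 and Lhx6 were called against SS in all 39 settings, and Reln in all 39 in MS and MM.

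In SM against SS, 3 of 9 members were called in the authors' series matrix and 2 on slide 1 alone (Reln lost in both, Gad1 in both, Sst on slide 1), and in MS against SS 3 on slide 1 alone. Gad1 was also lost in MM against SS on slide 1, and in SM against SS with only the arrays compared. A single slide holds 2 SS arrays. On slide 1 the differences in SM were -0.81 for Reln and 0.64 for Sst, larger than with all arrays. In MM against SM, 1 member was called with an offset of 50, with only the arrays compared, or with a variance trend. In MM against SM, 2 were called at a detection p under 0.01, with array weights, with 1 probe per gene, with place on the slide or without the 3 low-weight arrays. In SM against MS, 1 (Lhx6) was called with array weights. For the difference between MM against MS and SM against SS, 0 were called on slide 1 alone (-1.34 for Calb2, -0.96 for Lhx6 and 0.87 for Reln), Reln was also lost with arrays scaled to 1 median and in the series matrix, and 6 were called with array weights and 6 without the 3 low-weight arrays.

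Leaving out each array in turn gave 5 to 6 members called in SM against SS, 5 to 5 in MS, 5 to 6 in MM, 0 to 2 in MM against SM, 0 to 0 in MM against MS, 0 to 1 in SM against MS and 3 to 5 for the difference of differences (5 without SM replicate 3). In MM against SM, 2 were called without SS replicate 1, SS replicate 3 or MS replicate 1. The causes were not tested. Dim probes (Vip, Calb2 in SS, Nos1) limit what could be detected.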
